A study of Homo sapiens with 2 samples.

Results

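The regions described here are the chromosomal neighbourhoods of 6 forkhead genes that lie in 2 clusters, FOXF1, FOXC2 and FOXL1 on chromosome 16 and FOXQ1, FOXF2 and FOXC1 on chromosome 6. Their members were all deposited TET1 peaks that overlapped chr16:86450001-86700000 (250 kb) or chr6:1250001-1700000 (450 kb) of the human genome build hg19, whatever the strength of the peak. This gave 33 peaks, 14 on chromosome 16 and 19 on chromosome 6, of 46208 in the whole list. The cells were cardiac progenitors on day 7 of differentiation from H1, an established human embryonic stem cell line whose own TET1 gene carried a V5 tag, per the series' design text. The label of both libraries gives the genotype as wild type. The WNT activator CHIR99021 (6 µM) was present until day 2 and the WNT inhibitor IWP2 (5 µM) from day 3 to day 5. One group was the V5 ChIP and the other the input chromatin, with 1 library each, so nothing below could be set against a spread between replicates, and p-values are not given. The labels list no V5 ChIP of untagged cells, and TET1 signal and other signal of the antibody cannot be told apart. The series holds no expression values, so the labelled cell type could not be set against marker genes, and read depth is unknown.

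TET1 oxidises methylated cytosine, the first step of active removal of DNA methylation, and its CXXC domain binds DNA rich in CpG. Forkhead (FOX) proteins are transcription factors with a winged-helix DNA-binding domain. The FOXC and FOXF genes of the separate clusters are paralogs that go back to the duplication of an ancestral cluster, and they act in mesoderm. FOXC1 and FOXC2 are needed for the second heart field, the outflow tract and blood vessels, and FOXF1 and FOXF2 for the mesenchyme of the lung and gut and for the cells that divide the atria. FOXL1 is a factor of gut mesenchyme and FOXQ1 one of epithelia. The next gene before FOXF1 in the RefSeq gene table is FENDRR, a long noncoding RNA of lateral mesoderm, and the noncoding FOXC2-AS1 comes before FOXC2. On chromosome 6 the noncoding FOXF2-DT comes between FOXQ1 and FOXF2 in this order. FOXCUT comes just before FOXC1, and GMDS, an enzyme of GDP-fucose synthesis, after it.

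The DNA in front of the chromosome 6 genes is shown because a peak lay across each of their starts and because TET1 is known for binding CpG. Promoter entries of RefSeq (GRCh38.p14) matched 3 of the 6 genes, FOXQ1, FOXF2 and FOXC1, and not FOXF1, FOXC2 and FOXL1. The 250 bases before each start are given on the plus strand, which is the coding strand of these 3 genes, 5′ to 3′, with every CpG in capitals.
FOXQ1: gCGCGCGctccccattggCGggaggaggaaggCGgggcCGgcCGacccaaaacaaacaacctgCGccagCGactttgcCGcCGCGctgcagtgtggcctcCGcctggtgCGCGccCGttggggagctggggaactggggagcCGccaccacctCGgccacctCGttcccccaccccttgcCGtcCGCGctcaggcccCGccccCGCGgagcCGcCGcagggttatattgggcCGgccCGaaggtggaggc
FOXF2: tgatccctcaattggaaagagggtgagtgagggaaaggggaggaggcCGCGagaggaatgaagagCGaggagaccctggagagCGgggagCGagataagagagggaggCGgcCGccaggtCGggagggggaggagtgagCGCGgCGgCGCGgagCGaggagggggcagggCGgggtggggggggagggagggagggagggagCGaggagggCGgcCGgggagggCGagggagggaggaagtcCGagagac
FOXC1: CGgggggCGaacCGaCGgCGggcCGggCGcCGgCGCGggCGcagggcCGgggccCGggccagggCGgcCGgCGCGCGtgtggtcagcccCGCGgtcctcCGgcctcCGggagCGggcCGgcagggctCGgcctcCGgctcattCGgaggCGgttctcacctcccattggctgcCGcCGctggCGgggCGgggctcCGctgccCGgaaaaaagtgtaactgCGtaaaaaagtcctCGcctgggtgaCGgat

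The printed stretch of FOXC1 holds 37 CpGs, that of FOXQ1 29 and that of FOXF2 20. Over 300 bases, which adds 50 after the start, FOXC1 had 40 CpGs and a G+C share of 72.7%. As many CpGs were present in 7.61% of the 35116 promoter entries of the table, whose median was 14. FOXQ1 had 35 (as many in 14.1% of entries) and FOXF2 26 (30.1%), so all of the matched members lay above the median. The ratio of observed to expected CpG was 1.02 for FOXC1, 0.957 for FOXF2 and 0.837 for FOXQ1. The order of the 3 genes by CpG number was thus FOXC1, FOXQ1, FOXF2, and by the score of the peak over the start, given further on, FOXC1, FOXF2, FOXQ1. Both strands were searched for 5 motifs. The GC box core GGGCGG occurred once in FOXQ1 and 2 times each in FOXF2 and FOXC1, and 45.0% of all entries hold it. The sequence AGATAA, which GATA factors bind, occurred once, in FOXF2, and is held by 10.3% of entries. The TATA box sequence TATAAA, present in 11.5% of entries, was not found in these windows. Nor were the forkhead sequence TGTTTAC, present in 3.42%, and the E-box CACGTG, a palindrome counted once, present in 7.26%. The table and the peak list are on different builds, and the start used by RefSeq may not be the one used to place the peaks.

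A peak lay over the start of each of the 6 genes. The share of all gene starts that carry a peak was not computed here, so this count has no background to be read against. Gene positions were known to the nearest kb in hg19, and a start counted as overlapped when a peak came within 1 kb of it. The spacing of neighbouring starts differed by 0.5 to 0.7 kb from that in the RefSeq table. The score of a peak is the one that the authors deposited. It runs upwards from 50, and values of 3100 or more form a ceiling within which no order can be read. By score the starts fell in the order FOXC1, FOXF2, FOXF1, FOXC2, FOXQ1 and FOXL1. The 4 FOXC and FOXF starts all had peaks scoring 1735.6 or more, and the other members did not pass 548.83. Without replicates, the neighbours in this order cannot be said to differ, and FOXF1 and FOXC2 had nearly the same score.

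FOXF1, whose loss in humans disrupts the lung capillaries, lies at 86544 to 86548 kb on chromosome 16. The peak over its start, chr16:86540897-86547847, was 6951 bp wide with a score of 1739.75. Only 1.14% of all peaks were as wide, while 11.0% scored as high. It began 3.1 kb before the gene start and ran through 96.2% of the gene interval. Its paralog FOXF2, a factor of gut and palate mesenchyme and of brain pericytes, lies at 1390 to 1396 kb on chromosome 6. The peak over the FOXF2 start, chr6:1387772-1391949, was narrower (4178 bp) and scored higher (2312.24). It ended 1.9 kb into the gene. A second peak, chr6:1392065-1394963, followed after a gap of 115 bp with a score of 316.84, so that 80.8% of the FOXF2 interval was under peaks. The FOXF1 start peak was thus 1.66 times as wide as that of FOXF2 and had the lower score, in 1 library that gives no error for either value.

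For the FOXC genes, both width and score were higher at FOXC1. FOXC2, known for its part in lymphatic vessels and their valves, lies at 86601 to 86603 kb on chromosome 16, and its start peak, chr16:86599004-86602902, was 3899 bp wide with a score of 1735.6. FOXC1, a factor of the eye's anterior segment and the cranial mesenchyme as well as the heart, lies at 1611 to 1614 kb on chromosome 6. Its start peak, chr6:1604090-1612979, was 8890 bp wide, 2.28 times the width at FOXC2, and scored 2579.61. It was the widest peak of either cluster, and 0.446% of all peaks were as wide. After a gap of 610 bp a second peak, chr6:1613590-1616254 (2665 bp), covered the last part of the FOXC1 interval and ran past its end. This peak over the end of FOXC1, not a peak over a start, had the highest score of the 33, 3100, and was the 1 member at the ceiling. Across the list 4.69% of peaks were at the ceiling. The share was 1 of 19 on chromosome 6 (5.26%, exact 95% interval 0.133% to 26.0%) and 0 of 14 on chromosome 16 (exact 95% interval up to 23.2%). At these numbers a difference from the list or between the clusters was not detectable. Such intervals hold counting error alone, as if each peak were independent of its neighbours, which is not so.

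The remaining member of each cluster had the weaker start peaks. FOXQ1 lies at 1313 to 1315 kb on chromosome 6, and its peak, chr6:1310909-1314682, was 3774 bp wide with a score of 548.83. By width this peak was close to that of FOXC2, and 7.49% of all peaks were as wide, but 27.8% scored as high. FOXL1 lies at 86612 to 86616 kb on chromosome 16, and its peak, chr16:86611797-86613650, was 1854 bp wide with a score of 285.83. Scores at least as high were carried by 38.8% of all peaks, which places the FOXL1 start peak inside the ordinary range of the list. It was also the gene with least of its interval under peaks, 41.2%. No peak lay within 1 kb of its end, which was also so at FOXF2. A wider peak with a higher score, chr16:86608835-86610919 (2085 bp, score 358.87), ended 1.08 kb before the FOXL1 start. It fell just outside the 1 kb limit and stood 877 bp from the FOXL1 start peak. FOXL1 and FOXQ1 are compared here as the remaining genes of their clusters and are not taken as direct paralogs.

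**Figure D1:**
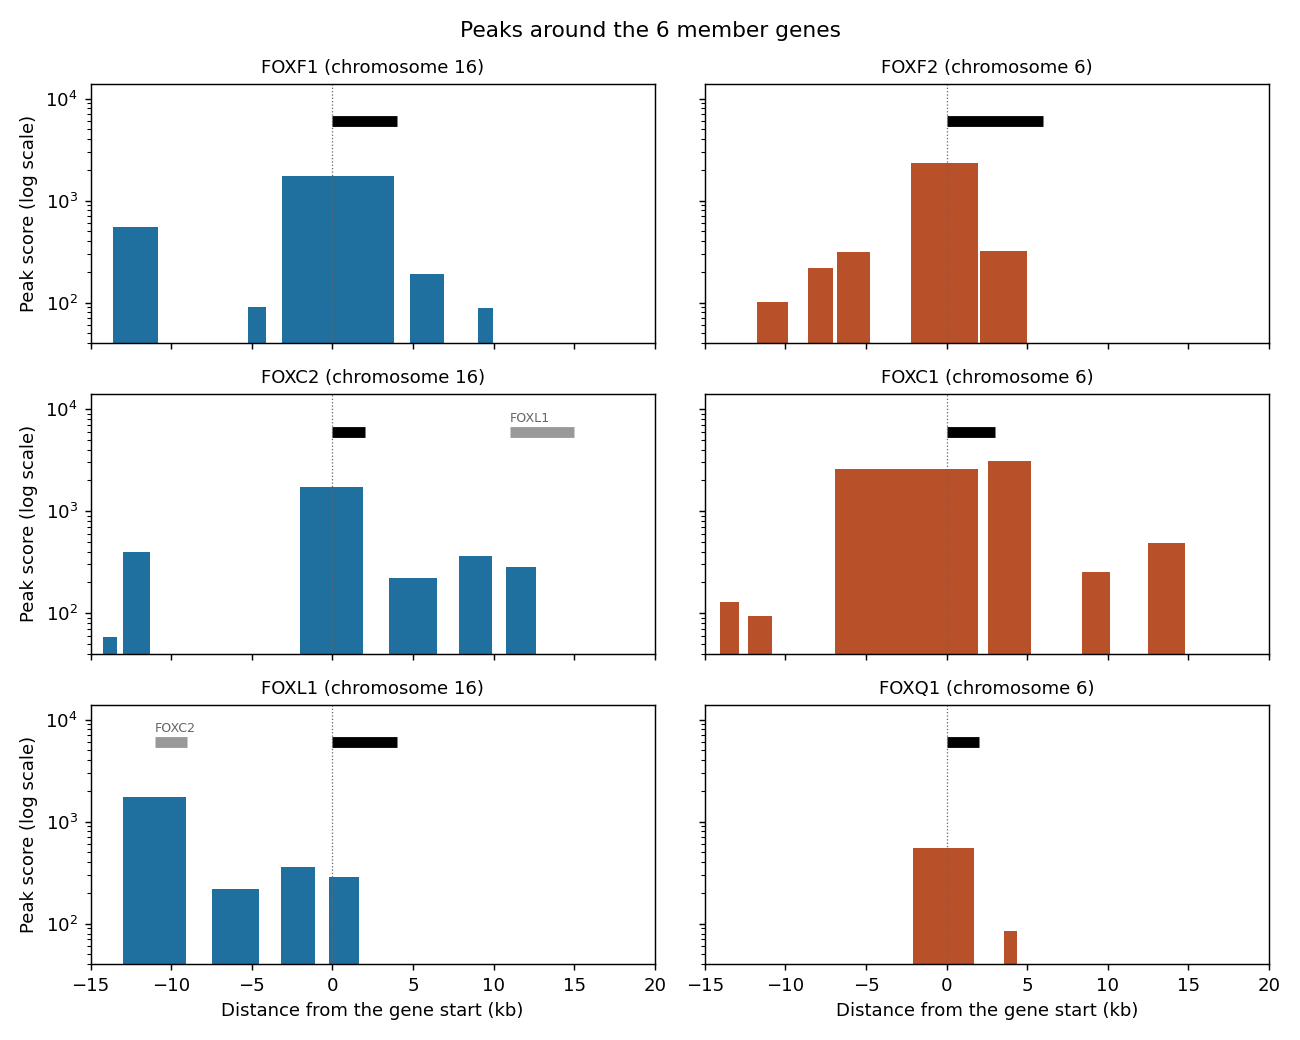
Peaks from 15 kb before to 20 kb past the start of each gene, with distance from the start in kb on the x axis and the deposited score on a log y axis that begins below the lowest score. Each filled block is 1 peak drawn to its width, black bars are the gene intervals and grey bars a neighbouring member; the widest block is the FOXC1 start peak of 8890 bp, and the tallest is the one over the FOXC1 end at 3100.

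The start peaks differed in how far they reached before the gene more than in how far they reached into it. Past the start, 5 of the 6 ended after 1.6 to 2.0 kb, and only the FOXF1 peak went further, to 3.8 kb. Before the start, the FOXL1 peak reached 0.2 kb, those of FOXC2, FOXQ1 and FOXF2 2.0, 2.1 and 2.2 kb, that of FOXF1 3.1 kb and that of FOXC1 6.9 kb. The part before the start made up 77.7% of the FOXC1 peak and 11.0% of the FOXL1 peak. Each of these distances carries a rounding error of up to 0.5 kb from the gene position, which is larger than the differences among FOXC2, FOXQ1 and FOXF2. The strand of the 3 chromosome 6 genes is plus in the RefSeq table. The chromosome 16 genes were taken as plus-strand genes from general knowledge. Widths and reaches are those of the whole peak. In RefSeq order FENDRR, on the minus strand, comes next before FOXF1, and FOXCUT next before FOXC1. Likewise FOXC2-AS1 precedes FOXC2 and FOXF2-DT precedes FOXF2. Whether the start peaks of the FOXC and FOXF genes also cover the starts of these neighbours was not tested.

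The surroundings of the genes were counted over each gene interval widened by 10 kb on either side. FOXC1 had the most sequence under peaks, 13.8 kb or 60.0% of its 23 kb, in 4 peaks. FOXF1 had 11.1 kb in 4 peaks and FOXF2 10.8 kb in 5 peaks. The FOXF paralogs, although unlike in the shape of the start peak, therefore had nearly the same length under peaks within 10 kb, while within 5 kb FOXF1 had 9.93 kb and FOXF2 7.34 kb. The intervals widened by 10 kb were not equally long, 24 kb at FOXF1 and 26 kb at FOXF2. Peaks covered 46.4% of the first and 41.5% of the second. FOXC2 had 10.1 kb in 4 peaks, and the length at FOXC1 was 1.36 times as great. FOXL1 had 7.78 kb in 4 peaks, but its start is 11 kb from that of FOXC2 and both widened intervals hold the same 4 peaks, the FOXC2 start peak among them. FOXQ1 had the least, 4.62 kb in 2 peaks, with 0.848 kb of it past the gene end. Within 5 kb the order of these last genes turned, with 4.4 kb at FOXL1 and 4.62 kb at FOXQ1. Tiles of the same length laid over the chromosomes give the background: 0.266% had as much sequence under peaks as FOXC1, 0.691% as FOXF1, 0.922% as FOXF2, 0.735% as FOXC2, 1.69% as FOXL1 and 3.73% as FOXQ1, and 75.2% to 77.6% held no peak. Such tiles are mostly far from genes, so these shares describe the genome at large and not other gene starts.

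The side on which the peaks lay also differed between paralogs. FOXF1 had 3.04 kb under peaks in the 10 kb past its end, among them chr16:86548799-86550901 with a score of 190. FOXF2 had none there and more before its start, 5.93 kb, where chr6:1381405-1382925 (score 220.7) and chr6:1383226-1385263 (score 311.83) stood 300 bp apart. FOXC2 had 6.23 kb past its end, in the stretch shared with FOXL1, and 2.00 kb before its start, all of it the start peak itself. FOXC1 had 6.91 kb before, again only its start peak, and 4.5 kb past its end.

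**Figure D2:**
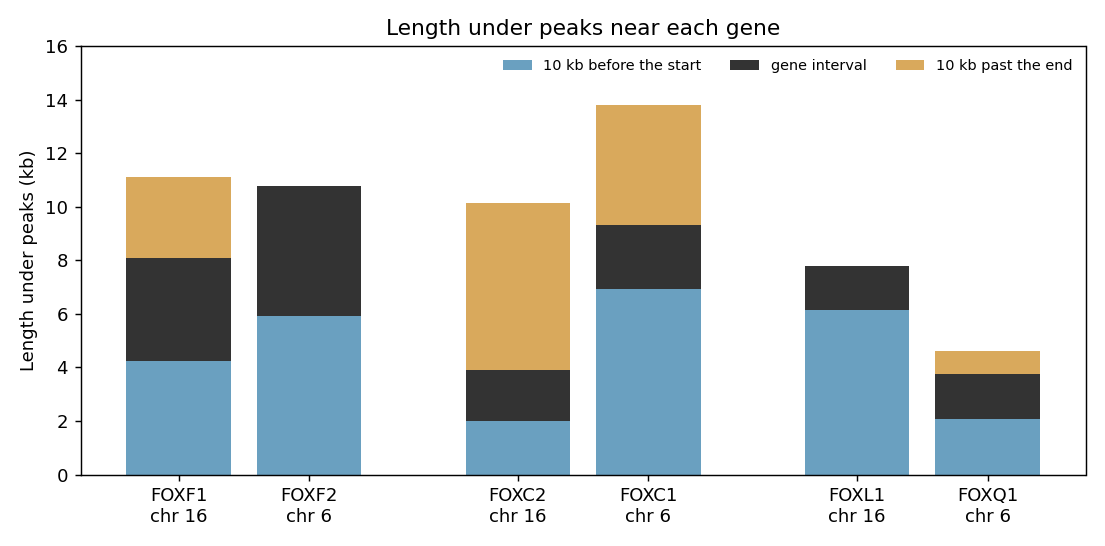
Length under peaks in kb for each gene, split into the 10 kb before the start, the gene interval and the 10 kb past its end, with paralogs side by side. FOXC1 is highest at 13.8 kb and FOXQ1 lowest at 4.62 kb, FOXF1 and FOXF2 are nearly level, and FOXF2 and FOXL1 have no length past the end.

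Along the whole windows, the strong peaks were few and all at the genes. A score of 1000 or more was reached by 5 of the 33 peaks (15.2%), against 18.6% of the list, so the clusters were not rich in strong peaks by share. Those 5 were the start peaks of FOXF1, FOXC2, FOXF2 and FOXC1 and the peak over the FOXC1 end. Scores below 100 were held by 12 of the 33, 5 of 14 on chromosome 16 (35.7%) and 7 of 19 on chromosome 6 (36.8%), close to the 32.9% of the list. Peaks of 5 kb or wider numbered 2 of the 33, at FOXF1 and FOXC1, and made up 3.20% of the list.

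The genes widened by 10 kb made up 23.6% of the chromosome 16 window and 15.8% of the chromosome 6 window. They held 70.7% and 70.1% of the sequence under peaks. The 19 peaks near genes had a median score of 312 (84.88 to 3100) and a median width of 2100 bp, and the 14 others a median score of 84.6 (50.96 to 556.44) and a median width of 1190 bp. The 2 ranges overlap. Away from the genes here means away from the 6 members. Other genes were not placed in hg19, so a peak counted as away may lie in or at one of them. The strongest peak away from the members was chr16:86530392-86533189, 2798 bp wide with a score of 556.44. This peak scored slightly above the FOXQ1 start peak. It ended 10.8 kb before the FOXF1 start, on the side where FENDRR is the next gene. Whether it lies within FENDRR was not tested. The next was chr16:86588030-86589713, with a score of 393.25, 11.3 kb before FOXC2. In RefSeq order the protein-coding MTHFSD and the noncoding FLJ30679 lie between FOXF1 and FOXC2. Their promoter entries held 31 and 33 CpGs. Whether the peak chr16:86588030-86589713 lies at the start of MTHFSD or FLJ30679 was not tested. On chromosome 6 the strongest peak away from the genes was chr6:1523731-1524993, between FOXF2 and FOXC1, at 239.24. The peak chr6:1623488-1625800, which began 9.49 kb past the FOXC1 end and scored 484.4, was counted among those near the gene. It lay on the side of GMDS, and whether it overlaps GMDS was not tested.

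**Figure D3:**
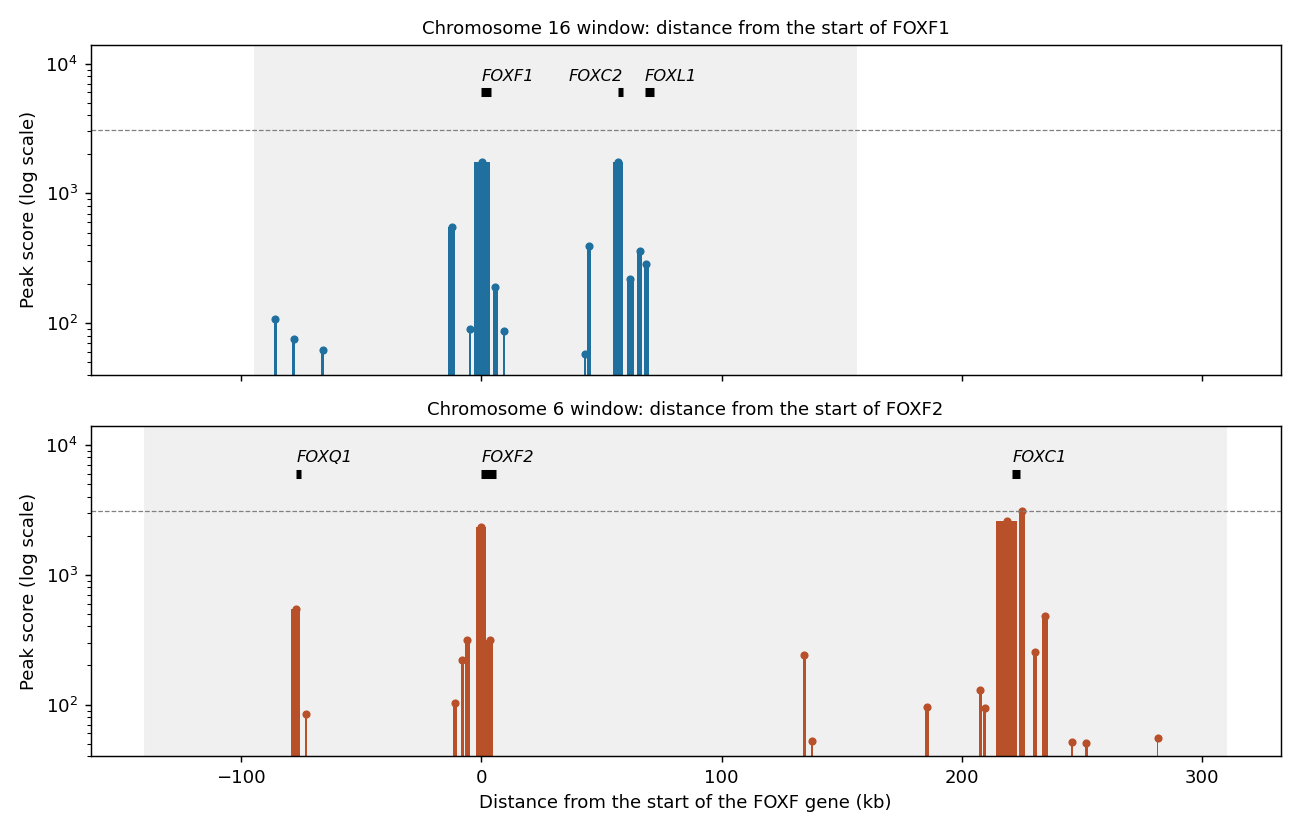
All 33 peaks by distance in kb from the start of FOXF1 (upper panel) and of FOXF2 (lower panel), with the score on a log y axis; blocks are drawn to the width of the peaks, dots mark their middles, black bars the genes, the grey band the window and the dashed line the score of 3100. Scores of 1000 or more occur only at FOXF1, FOXC2, FOXF2 and FOXC1, and the longest stretch without a peak between first and last peak is the 129 kb that begins in the last part of FOXF2.

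The space between the member genes, which holds other genes as well, was filled unevenly. Between FOXF1 and FOXC2, 53 kb apart, 14.4% of the sequence was under peaks, with a peak-free stretch of 32.8 kb. The 9 kb between FOXC2 and FOXL1 were the fullest, with 58.1% under peaks and no peak-free stretch above 1.53 kb. Between FOXQ1 and FOXF2, 75 kb apart, 11.4% was under peaks, and 60.8 kb from chr6:1317399 to 1378232 held none. Between FOXF2 and FOXC1, 215 kb apart, 6.24% was under peaks, and the FOXF2 side of this interval was empty for 128 kb. With the last part of the FOXF2 gene, the gap between neighbouring peaks came to 129 kb. Between these genes 5 peaks stood free of both, and all of them scored below 240. On chromosome 16 no deposited peak followed the FOXL1 start peak for 89.7 kb.

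Joined across gaps of up to 1 kb, the peaks at 4 of the genes formed longer stretches. The FOXC1 stretch, chr6:1604090-1616254, measured 12165 bp and took in the whole gene. As long were 0.69% of the 40724 stretches and single peaks that such joining leaves in the list. The FOXF1 stretch measured 10005 bp (1.19%), the FOXF2 stretch 7192 bp (2.76%) and the FOXL1 stretch 4816 bp (6.94%). FOXC2 and FOXQ1 kept their single start peaks.

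By number, the chromosome 16 window had 5.6 peaks per 100 kb (exact Poisson 95% interval 3.06 to 9.4) and the chromosome 6 window 4.22 (2.54 to 6.59). The ratio was 1.33 with an exact interval of 0.615 to 2.79, so a difference in density was not detectable. The windows reach unequally far past the outer genes, and limited to 20 kb around these genes the ratio was 2.09 (0.878 to 4.8). Peaks covered 12.4% of the first and 9.25% of the second. As many peaks were found in 7.64% of tiles of 250 kb and in 10.6% of tiles of 450 kb over the genome, and as much sequence under peaks in 5.85% and 8.4%. The median tile held 2 peaks at 250 kb and 3 at 450 kb. Tiles were not matched for gene content, so these shares describe the genome at large and not other gene clusters.

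The clusters differed in what lay around them. The 250 kb on either side of the chromosome 16 window held 15 and 12 peaks, as many as the window's own 14 within counting error. Their median scores were 146 before and 128 after the window, against 204 inside. None of them reached a score of 1000, the highest being 359.96 before and 674.39 after, both above the score of the FOXL1 start peak. Peaks covered 8.21% and 7.17% against 12.4% inside. The 450 kb on either side of the chromosome 6 window held 1 and 2 peaks, against 19 inside, with scores up to 199.13. Peaks covered 0.286% and 0.535% there and 9.25% inside. Before FOXQ1 no peak was listed for 240 kb. The chromosome 6 genes thus stood in sequence with few peaks and the chromosome 16 genes in sequence with about as many peaks per kb as their own window. That likeness on chromosome 16 depends on the window limits. Limited to 20 kb around the outer genes, the stretch held 11 peaks in 112 kb, which is more per kb than in either 250 kb flank. Whether copy number, mappability or read depth differ around the clusters was not tested.

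**Figure D4:**
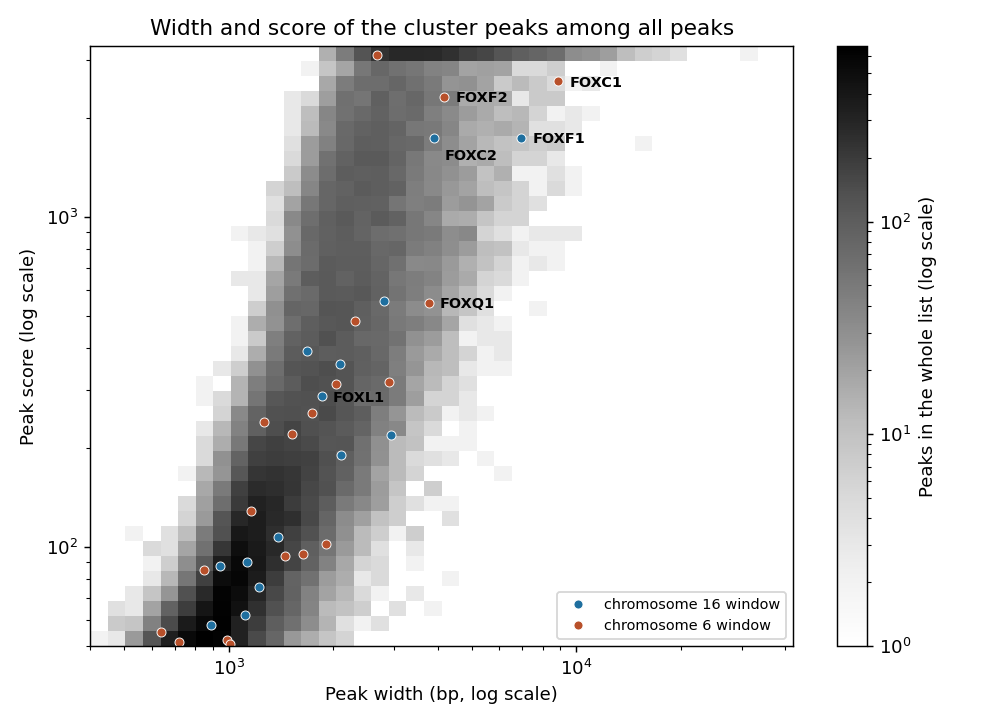
Width in bp (log x axis) against score (log y axis) of the 33 cluster peaks, coloured by window, over all peaks of the list, whose number per cell is given by the grey scale on a log scale. The named points are the start peaks. FOXC1, FOXF1 and FOXQ1 lie on the wide side of the peaks of their score, and FOXF2 and FOXC2 less far to that side. FOXL1 lies among peaks of ordinary width and score.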

How the data were processed

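V5 ChIP and input chromatin were sequenced from 1 library each. Alignment was with BWA 0.7.17, and the build was hg19, both per the processing notes of the submitters. The deposited peak list gives a start, an end and a score for each peak, and per its peak names the peaks were called with MACS. The MACS version and settings were not stated there. No header names the unit of the score, and it was used to rank or describe peaks of this list and for nothing else. Starts were converted to count from 1. The gene positions came with the definition of the regions, in kb of hg19, and not from an annotation file. All 6 genes are described, and the peaks named are those at the genes, the strongest, the widest and those beside long gaps. Some neighbours of these were also named after their values had been seen. The members and lists were chosen with earlier results of these data known. Overlap meant at least 1 bp. Genome tiles did not overlap and spanned each chromosome between its outermost peaks. Promoters and gene order are from RefSeq (GRCh38.p14); protein sequences were not used here. Alternatives were score thresholds, merging, window limits, flanks and start tolerances. Scripts ran under Python 3.11.15 with scipy 1.17.1, numpy 2.4.6 and pandas 2.3.3, and the overlap and merging code was tested on simulated data.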

Additional observations from a re-analysis of the deposited data

How the results depend on the processing

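For 25 results, 76 alternative values were computed, of which 62 lay within 1.5 times the reported value and 14 moved. For ceiling shares and the density ratio the limit was the wide 95% interval instead, so a ratio of 2.09 against 1.33 counted as unmoved. Some of the 62 could not have moved. A start under a peak at 1 kb stays so at 2 kb. The chromosome 16 ceiling share of 0 cannot rise when peaks are dropped or merged. The start of each of the 6 genes was also under a peak with no tolerance and with 2 kb, again without a share over all gene starts. With scores of 100 or more, the chromosome 16 window held 9 peaks, the chromosome 6 window 12, FOXF1 had 2 nearby and FOXQ1 1. With scores of 300 or more the windows held 5 and 7 peaks, which covered 6.97% and 5.95% of them. Limiting the windows to 20 kb around the outer genes raised the covered share of chromosome 16 to 24.3%. Widening genes by 5 kb instead of 10 kb left 2 peaks near FOXC2, 3 near FOXF2 and 2 near FOXC1, and 4.4 kb under peaks near FOXL1. Merging peaks up to 1 kb apart left 3 near FOXF2. Fewer peaks at a higher threshold or in a shorter stretch follow from the construction. The unknown read depth limits what absent peaks mean. No paired analysis was possible because ChIP and input had a single library each.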
